A study of Mus musculus with 4 samples.

Results

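C-type lectin receptors of myeloid cells were followed through single-cell counts of the mouse spinal cord before and after injury. The set was 9 genes, namely Clec4a1, Clec4a2, Clec4a3, Clec4d, Clec4e, Clec4n, Clec5a, Clec7a and Clec12a, taken by symbol from the gene rows of 4 count matrices. Rows for 8 of the 9 genes were found among 31053 gene rows, and Clec7a, the β-glucan receptor Dectin-1, was not analysed here. The 8 genes were described in cells that marker genes placed with neutrophils, monocytes, macrophages, microglia and dendritic cells (DCs).

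These receptors sit on the surface of innate immune cells and bind sugars, glycolipids and products of dying cells. The activating members analysed here are Clec4e (Mincle), Clec4d (MCL), Clec4n (Dectin-2) and Clec5a (MDL-1). They carry no signalling motif of their own and pair with an adaptor, Tyrobp (DAP12) for Clec5a and Fcer1g (the FcRγ chain) for the others. Through the adaptor they engage the kinase Syk and then Card9, which leads to NF-κB activation and to cytokines such as Tnf, Il1b and Cxcl2. Clec4a2 (DCIR) and Clec12a (MICL) instead carry an inhibitory motif in their own tail that recruits the phosphatases Ptpn6, Ptpn11 and Inpp5d, and Clec4a1 and Clec4a3 are close relatives of Clec4a2.

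CD45+ cells, that is leukocytes including microglia, had been sorted from the spinal cord of C57BL/6 mice of both sexes, aged 3 months. One library was made per condition: sham mice (laminectomy only) with standard dissociation (standard sham), sham mice with actinomycin D, a transcription inhibitor, in the dissociation buffers (ActD sham), and mice at 3 or 14 days post injury (dpi) after a contusion at T10, both dissociated with ActD. Mice of a condition were not told apart, and how many went into each library was not given in the sources used here, which state only a total over the groups. There were no replicates, so nothing below is a test: each level is the sum of unique molecular identifiers (UMIs, 1 per captured transcript) of a gene over the cells of a class over all UMIs of those cells, scaled to the usual CPM, its exact Poisson 95% interval covers counting error only, and the spread between mice is unknown.

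The libraries held 2439 to 11631 barcodes and 27447471 to 129935880 UMIs, and 2143 to 9444 cells per library were kept. In the order standard sham, ActD sham, 3 dpi and 14 dpi, which is used throughout, there were 400, 103, 1846 and 1358 neutrophils, 299, 28, 463 and 967 monocytes, 100, 124, 3528 and 316 macrophages, and 2783, 1544, 916 and 4474 microglia. DCs were named only in the injured libraries, with 492 and 298 cells. Summed neutrophil markers made up 324300, 378200, 56680 and 372300 CPM of neutrophils, so the 3 dpi neutrophils were poorest in them, and their median depth was also lowest, at 2287 UMIs per cell against 6786.5, 13650 and 5741 in the other libraries. Microglia markers summed to 16770, 29730, 6691 and 13150 CPM in microglia. All 100 and 124 macrophages of the sham libraries were in border-like clusters, whereas 3184 of the 3528 macrophages at 3 dpi and 182 of the 316 at 14 dpi were in injury-like clusters. The matrices of the standard sham and 3 dpi libraries name a different software release from those of the other pair, so release and condition cannot be told apart in any comparison of 3 dpi with ActD sham or 14 dpi, or of the standard sham with ActD sham.

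Free RNA can place UMIs of a receptor in cells that do not make it, and T and B cells, which should lack these genes, were taken as the background, in the ActD sham from 65 B cells alone. In T and B cells together the 8 genes were at no more than 12.2 CPM in the standard sham, 4.24 CPM in the ActD sham and 6.88 CPM at 14 dpi. At 3 dpi the background was higher, with 58.3 CPM for Clec4d, 49.6 CPM for Clec4e, 25.3 CPM for Clec4n, 14.8 CPM for Clec5a and 14.4 CPM for Clec4a2. Levels at 3 dpi were therefore read against these values.

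All 8 genes lay on chromosome 6 in mm10: Clec4a1 at 122921848 to 122934619, Clec4a3 at 122952515 to 122969875, Clec4a2 at 123106428 to 123143999, Clec4n at 123229843 to 123247021, Clec4d at 123262111 to 123275265, Clec4e at 123281789 to 123289870 and Clec12a at 129342691 to 129365303. Clec5a lay far from the others, at 40574894 to 40585821. Clec4d and Clec4e are neighbours on opposite strands, with 6.52 kb between them. The Clec4a genes are paralogs, and their levels are uncertain where reads could be split or dropped between them.

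Across classes and libraries, Clec4d and Clec4e had the most similar pattern of log2 CPM of any pair of members (Pearson's r = 0.922), though not equal levels. For that reason the 250 bases before the start of each are shown, read 5′ to 3′ on the gene's own strand. Both come from RefSeq on GRCm38.p6 (mm10), at chr6:123261857-123262106 on the plus strand for Clec4d and chr6:123289872-123290121 on the minus strand for Clec4e. Capitals mark matches on either strand to a PU.1-type motif (GAGGAA), a C/EBP-type motif (TTGCNNAA), an AP-1-type motif (TGANTCA) or a TATA-type motif (TATAAA).
Clec4d: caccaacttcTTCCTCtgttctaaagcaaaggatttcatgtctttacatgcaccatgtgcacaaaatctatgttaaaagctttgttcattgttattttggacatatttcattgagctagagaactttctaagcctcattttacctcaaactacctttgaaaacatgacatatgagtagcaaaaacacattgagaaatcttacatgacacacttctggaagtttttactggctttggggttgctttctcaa
Clec4e: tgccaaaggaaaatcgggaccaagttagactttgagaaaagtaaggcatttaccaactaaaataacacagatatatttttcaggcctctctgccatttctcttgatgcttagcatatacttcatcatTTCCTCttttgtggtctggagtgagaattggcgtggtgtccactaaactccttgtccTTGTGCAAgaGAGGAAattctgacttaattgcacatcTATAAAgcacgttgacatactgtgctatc
The Clec4e window held 2 PU.1-type matches, 1 C/EBP-type match and 1 TATA-type match that ended 24 bases before the start, whereas the Clec4d window held 1 PU.1-type match, 235 to 240 bases before the start. Among 32851 windows of the same length, 23.3% held the PU.1-type letters, 9.56% the C/EBP-type, 6.75% the AP-1-type and 12.4% the TATA-type. A match is a description of these letters, not a binding site.

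Fewer members stood above background in microglia than in neutrophils, monocytes or macrophages of the same library. Counted as members whose 95% interval lay above that of the T and B cells of the same library, 8, 5, 7 and 8 of the 8 genes were above background in neutrophils, 8, 7, 8 and 8 in monocytes and 8, 6, 8 and 8 in macrophages. In microglia the counts were 3, 3, 3 and 7, and in DCs they were 6 at both times. The upper limit in T and B cells differed among libraries, for Clec4n at 3.15, 7.82, 32.6 and 1.13 CPM. Counts of different libraries are therefore not on the same scale. The 8 genes summed to 1405, 1107, 2641 and 1307 CPM in neutrophils but to 198.3, 306.6, 248.4 and 188.4 CPM in microglia.

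**Figure D1:**
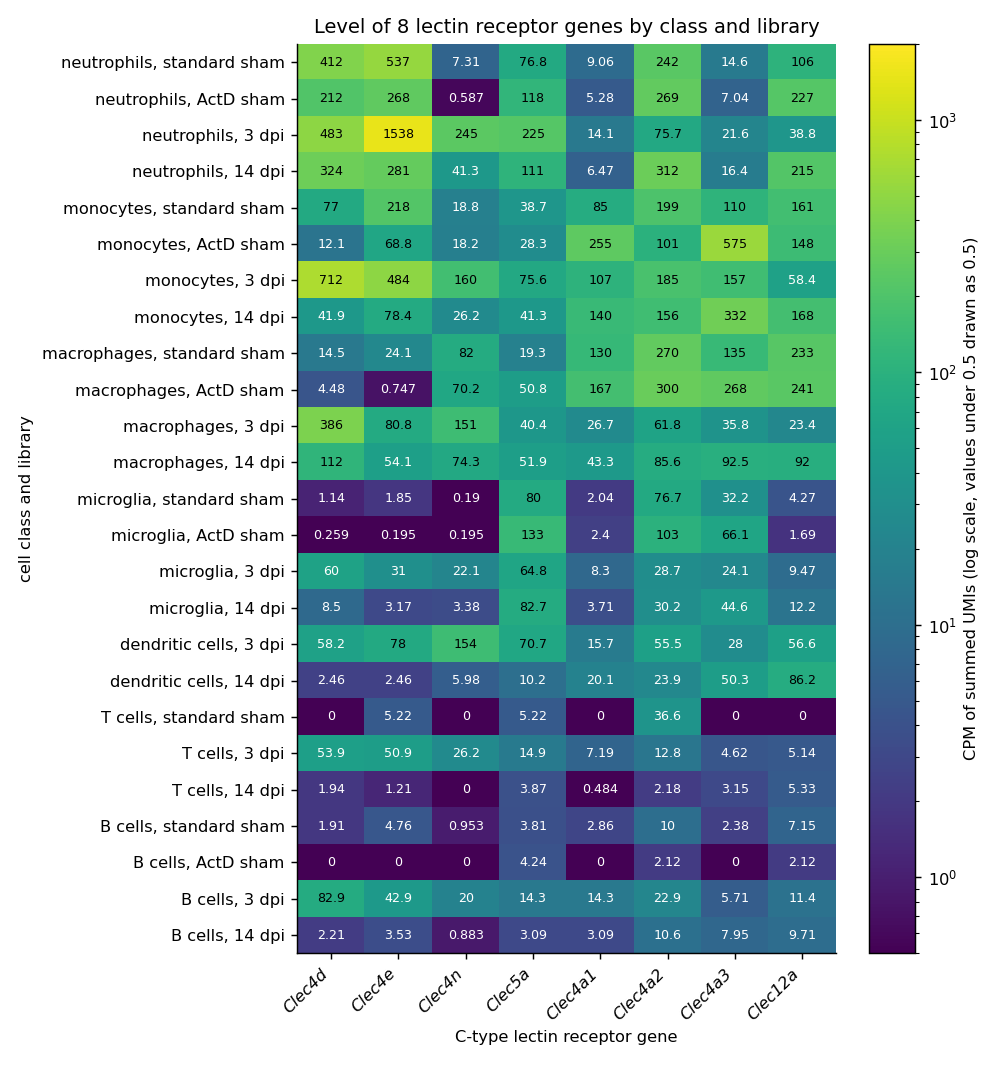
Level of the 8 receptor genes (columns) in each cell class and library (rows), with T and B cells as background. Printed values are CPM of summed UMIs, the colour follows CPM on a log scale, and values under 0.5 are drawn as 0.5. Clec4e in neutrophils at 3 dpi, at 1538 CPM, is the highest value.

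Clec4e, which recognises mycobacterial glycolipids and a protein released by dead cells, was above all a neutrophil transcript. In neutrophils it was at 537.4, 267.5, 1538 and 280.7 CPM. The 3 dpi library was the highest and the 95% intervals of the 2 sham libraries and 3 dpi did not overlap. Between 3 dpi and ActD sham the log2 ratio was 2.52 (95% interval 2.39 to 2.66). A difference was called where the ratio was at least 2-fold and its interval excluded equal levels, and members with fewer than 20 UMIs in a pair were not called, such as Clec4n in microglia of the sham pair and Clec4e in border-like macrophages at 14 dpi over ActD sham. By this rule 5 of the 8 members, all with enough UMIs, were called higher in neutrophils at 3 dpi than in ActD sham. That count has to be read against a background of 49.9% of all genes called higher there, and against a median log2 ratio of 1.09 over all genes. After TMM scaling, which moved all ratios by -0.86, 2 of the 5 remained, Clec4e at 1.66 and Clec4n.

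Clec4d, the partner that forms heteromers with Clec4e, was at 411.7, 212.3, 482.7 and 324.3 CPM in neutrophils. Its highest and lowest libraries were thus 3 dpi and ActD sham, with a log2 ratio of 1.18 (1.02 to 1.35) that was within the shift of all genes and dropped to 0.32 after TMM scaling. Clec4n, which binds fungal mannans, went from 1 UMI in ActD sham neutrophils (0.587 CPM), and 7.31 CPM in the standard sham, to 245.2 CPM at 3 dpi and 41.3 CPM at 14 dpi. Clec4n was the member that differed most between sham and injured neutrophils, and its log2 ratio to ActD sham was 8.71 (6.23 to 14.01) at 3 dpi and 6.14 (3.65 to 11.44) at 14 dpi, with limits this wide because of the lone sham UMI. At 14 dpi, Clec4n and Clec4a3 (1.22) were the 2 members called higher than in ActD sham (11.2% of all genes), and 0 were called lower (4.16%). Clec4a3 was uneven there, at 260 CPM in a cluster of 21 cells and at 0 to 58.9 CPM in the other 14 dpi clusters. Its ratio without those 21 cells was not taken. Without the 14 dpi cluster richest in Clec4d, described further on, Clec4n was at 20.9 CPM and its log2 ratio was 5.15. Injury-like macrophages also held Clec4n, and their markers, 8 to 10 of 10 with UMIs, summed to 1262, 1317, 10810 and 1187 CPM in neutrophils and to 6929 CPM in the T and B cells at 3 dpi. Their part in the Clec4n ratio was not tested.

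**Figure D2:**
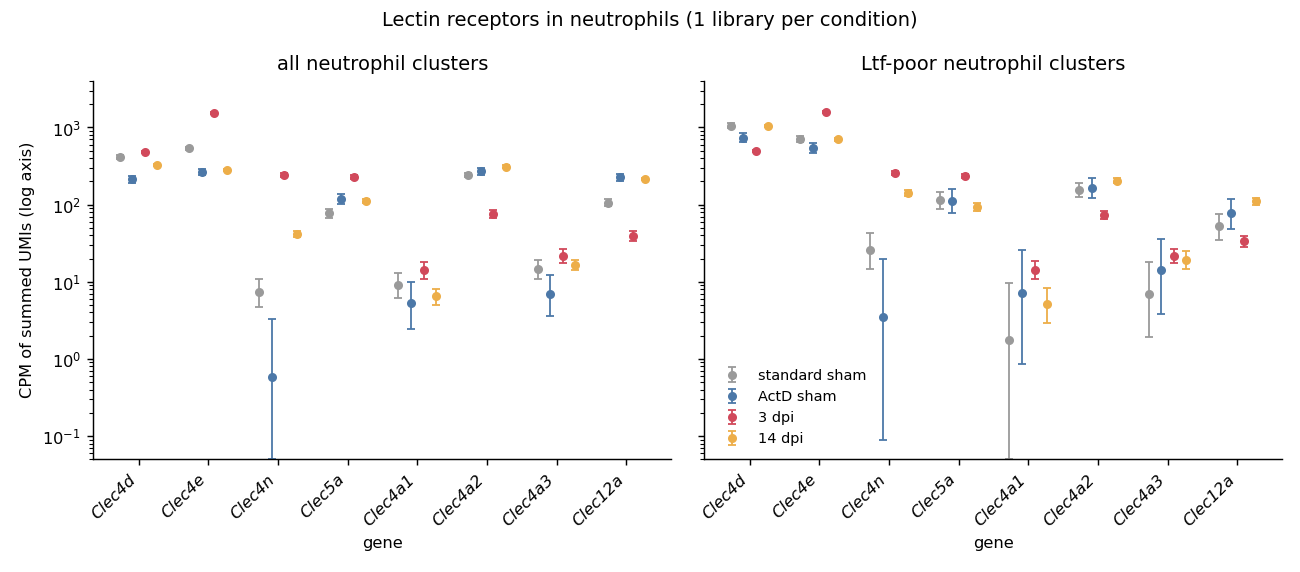
Level of each receptor gene in neutrophils of the 4 libraries, in all neutrophil clusters (left) and in the clusters poor in lactoferrin (right). The y axis is CPM on a log scale, points are libraries, and bars are exact Poisson 95% intervals, drawn down to the axis start where they reach below it. Clec4n lies highest at 3 dpi in both panels, and Clec12a lies lowest there.

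The neutrophils differed in granule transcripts among libraries. Lactoferrin (Ltf) is a secondary granule protein made before neutrophils leave the bone marrow. Ltf was under 2000 CPM, a limit set after the clusters were seen, in clusters that held 35.0%, 26.2%, 97.9% and 56.9% of neutrophils. This limit did not match the cells in other neutrophil genes. In the clusters under it, Retnlg was at 44230, 35110, 221.6 and 31390 CPM, Mmp8 at 2323, 3270, 62.3 and 2210 CPM, and Ngp at 1360, 1398, 11.1 and 3216 CPM. Within these Ltf-poor clusters Clec4d was at 741.5 CPM in ActD sham (27 cells) and 495.2 CPM at 3 dpi (1808 cells), a log2 ratio of -0.58 (-0.79 to -0.37). Clec4e was at 1600 against 543.8 CPM, a log2 ratio of 1.56 beside a median of 1.53 over all genes in this comparison. Clec4n was at 256.6 against 3.53 CPM (6.18, 3.7 to 11.49). With Clec5a (1.05, under that median) these made 3 of 8 members called higher among Ltf-poor cells, a share near the 34.8% of all genes. At 14 dpi the Ltf-poor neutrophils held 1050 CPM of Clec4d, 703.6 CPM of Clec4e and 142.1 CPM of Clec4n. Among them Clec4d (log2 ratio 1.08), Clec12a (1.71) and Clec4a2 (1.48) were called higher at 14 than at 3 dpi (5.93% of all genes), and Clec4a1 (-1.48), Clec5a (-1.34) and Clec4e (-1.18) were called lower (53.9%), where the median of all genes was -1.17.

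Across the 28 neutrophil clusters of the 4 libraries, some receptors followed Ltf and others ran against it. Spearman's rho with Ltf was 0.81 for Clec12a and 0.79 for Clec4a2, against -0.78 for Clec4n, -0.75 for Clec4d and -0.72 for Clec4e. The other members had weaker values, -0.43 for Clec4a3, -0.35 for Clec4a1 and -0.3 for Clec5a. Clusters of a library share its cells, depth and background, so these values describe the clusters only. The 14 dpi cluster richest in Clec4d, picked by that level, had 67 cells. It held 2540 CPM of Clec4d, 2178 CPM of Clec4e and 1229 CPM of Clec4n. The other neutrophils of that library, Ltf-rich ones included, held 286.2, 248.1 and 20.9 CPM. The cluster also held 15000 CPM of the chemokine Cxcl2. Another 14 dpi cluster, of 117 cells, held 2330, 1110 and 271 CPM of these receptors and 17100 CPM of Cxcl2.

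**Figure D3:**
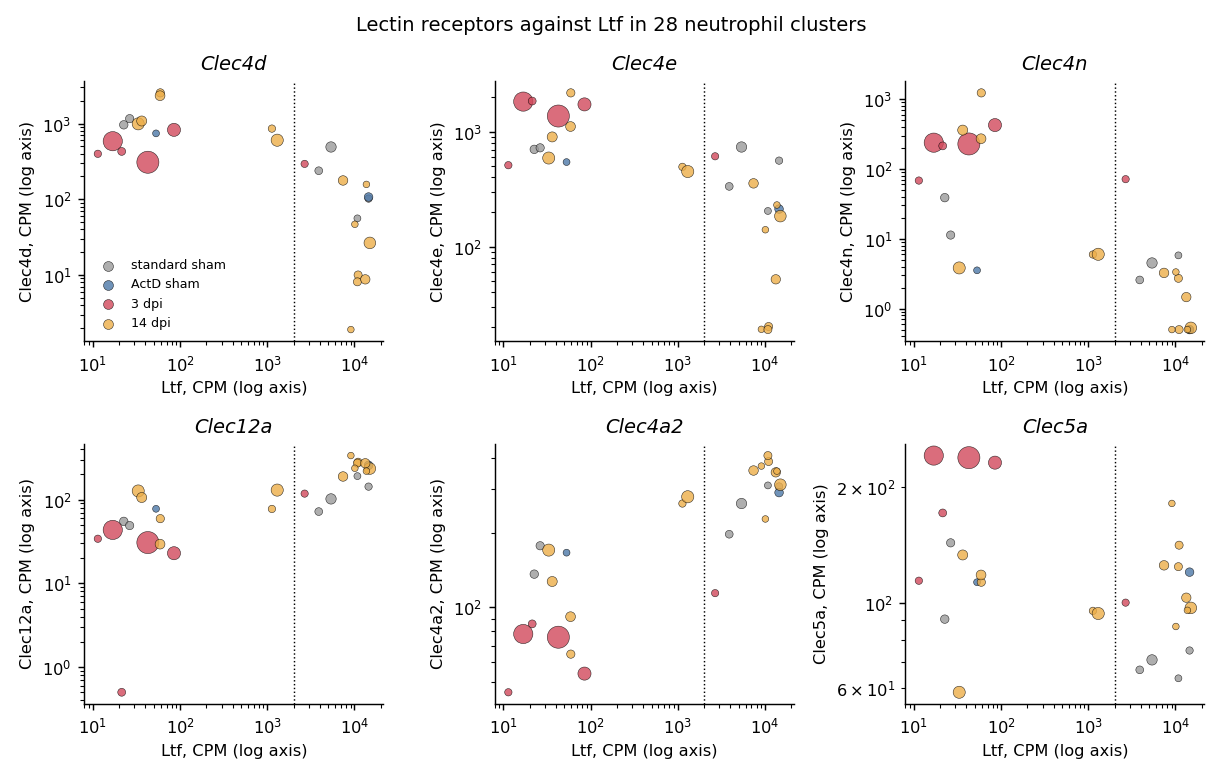
Level of 6 receptor genes against Ltf in 28 neutrophil clusters of the 4 libraries. Both axes are CPM on log scales, point area follows the number of cells, colour gives the library, the dotted line marks 2000 CPM of Ltf, and values under 0.5 are drawn as 0.5. Clec4d, Clec4e and Clec4n lie higher at low Ltf, and Clec12a and Clec4a2 lie lower.

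Shares of neutrophils with a UMI of Clec4e were 87.5%, 89.3%, 78.3% and 71.1% at the unequal depths given above. When each cell was thinned to 1000 UMIs, which left out 0 to 8 cells per class and library, the shares were 36.8%, 31.1%, 63.5% (exact binomial 61.2 to 65.7) and 30.9%. For Clec4n they were 0.75%, 0%, 18.5% and 6.04% after thinning, and 5.5%, 0.971%, 32.2% and 10.5% before it. T cells at 3 dpi had thinned shares of 6.21% for Clec4e and 2.61% for Clec4n. The T and B cells had a median of 3282 UMIs per cell in that library, above the 2287 of its neutrophils.

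In monocytes, all 463 of which at 3 dpi were in classical-like clusters, Clec4d was the member with the widest range. It was at 77.0, 12.1, 712.5 and 41.9 CPM, and at 3 dpi monocytes held more of it than neutrophils (482.7 CPM) or macrophages (386.5 CPM). Clec4e was at 218.5, 68.8, 484.5 and 78.4 CPM, and Clec4n at 18.8, 18.2, 159.8 and 26.2 CPM. All 3 were highest at 3 dpi. From 3 to 14 dpi, Clec4d fell by 4.09, Clec4e by 2.63 and Clec4n by 2.61 on the log2 scale, the 3 members called lower, against 7.45% of all genes. The median of all genes was 0.46 in this comparison, and TMM scaling moved ratios by -0.34. In T and B cells these genes went from 58.3, 49.6 and 25.3 CPM at 3 dpi to 2.03, 2.03 and 0.313 CPM at 14 dpi. Injury-like macrophage markers summed to 18090 and 3621 CPM in monocytes at these times, and classical monocyte markers to 13220 and 13630 CPM. Both lists hold Fn1. Their part in these ratios was not tested. Monocytes of the ActD sham library numbered 28, and no ratio was taken to them. Among the 5 monocyte clusters at 3 dpi Clec4d ranged from 112 CPM, in a cluster led by Plac8 and Ly6c2, to 1070 CPM in a cluster of 93 cells led by Slpi and Chil3.

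Macrophages of the sham libraries held little Clec4d or Clec4e, and those of the injured cord held more. Clec4d was at 14.5, 4.48, 386.5 and 112.2 CPM, and Clec4e at 24.1, 0.747, 80.8 and 54.1 CPM, with 6 and 1 UMIs in ActD sham. Clec4n was already present in sham, at 82.0, 70.2, 151 and 74.3 CPM. At 3 dpi against ActD sham the log2 ratios were 6.43 (5.31 to 7.88) for Clec4d, 6.76 (4.28 to 12.06) for Clec4e and 1.1 for Clec4n, the 3 members called higher, with 8.32% of all genes called higher. Different clusters held most macrophages of these libraries, border-like in sham and injury-like at 3 dpi. The median log2 ratio of all genes was -0.39, and TMM scaling moved the ratios by 0.63. With libraries clustered alone or merged, at resolution 1.2 or under stricter cell filters, 2 members were called higher in place of 3. The count was also 2 with the level in T and B cells subtracted and a macrophage interval above theirs required.

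Within border-like macrophages, present in every library, Clec4d was at 297.5 CPM at 3 dpi (344 cells) and 53.96 CPM at 14 dpi, and Clec4e was at 101.7 and 7.32 CPM. These 2 were the members called higher at 3 dpi than in ActD sham (log2 ratios 6.05 and 7.09, 11.5% of all genes), whereas Clec4n, at 97.2 CPM, had a ratio of 0.47. At 14 dpi Clec4d was the 1 member still called higher than in ActD sham (3.59, 4.06% of all genes) and 0 were called lower (3.54%). From 3 to 14 dpi, Clec4e (-3.8) and Clec4d (-2.46) were called lower in border-like macrophages (9.33% of all genes), and Clec12a (1.3) and Clec4a3 (1.13, or 0.88 after TMM scaling) were called higher (13.7%). In injury-like macrophages Clec4d (-1.57) and Clec4n (-1.38) were called lower over the same interval (7.61%), Clec12a (1.85) was called higher (13.3%), and Clec4e, at 78.7 and 71.4 CPM, was not called. No member reached 2-fold higher in injury-like than in border-like macrophages at 3 dpi (0 called, 1.25% of all genes), although Clec4n, at 156.5 against 97.2 CPM (log2 ratio 0.69, 0.56 to 0.82, and 1.0 after TMM scaling), and Clec4d, at 395.5 against 297.5 CPM (0.41, 0.34 to 0.49), had intervals above equal levels. At 14 dpi Clec4e was at 71.4 CPM in injury-like and 7.32 CPM in border-like macrophages, and Clec4d at 133.7 and 53.96 CPM, the 2 members called higher (3.59% of all genes). In ActD sham, Clec4n ranged from 4.82 to 235 CPM among 4 macrophage clusters and was highest in the cluster led by Mrc1, Lyve1 and Folr2, genes of perivascular and meningeal macrophages.

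In CPM, microglia of the sham libraries and 3 dpi were near or under the T and B cells for Clec4d, Clec4e and Clec4n. Clec4d was at 1.14, 0.259, 59.99 and 8.5 CPM, Clec4e at 1.85, 0.195, 31.0 and 3.17 CPM, and Clec4n at 0.19, 0.195, 22.1 and 3.38 CPM. The log2 ratios to ActD sham, in which microglia held 3 or 4 UMIs of each gene, were large, beside a median of -0.53 over all genes and a TMM shift of 0.47. They were 7.85 (6.49 to 9.73) for Clec4d, 7.31 (5.76 to 9.6) for Clec4e and 6.83 (5.27 to 9.11) for Clec4n at 3 dpi. In all, 5 of 8 members were called higher in microglia at 3 dpi, with 15.4% of all genes called higher, the other 2 being Clec12a (2.49) and Clec4a1 (1.79). However, the T and B cells of the same library held as much in CPM, with 58.3, 49.6 and 25.3. A count with that background subtracted also required the microglia interval to lie above that of the T and B cells. By these rules 0 of 8 members were called higher. None of the 5 met the interval rule, so the 0 is not a result of the subtraction alone. Injury-like macrophage markers summed to 6929 CPM in these T and B cells and to 31970 CPM in these microglia.

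**Figure D4:**
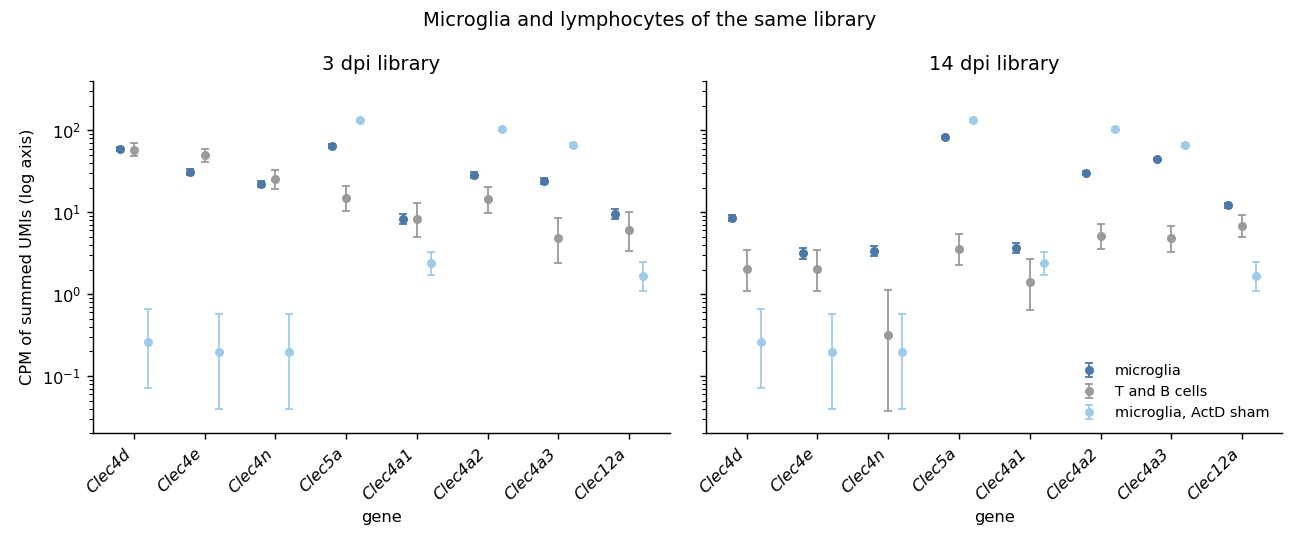
Level of each receptor gene in microglia and in T and B cells of the same library at 3 dpi (left) and 14 dpi (right), with ActD sham microglia for reference. The y axis is CPM on a log scale and bars are exact Poisson 95% intervals. At 3 dpi Clec4d, Clec4e and Clec4n of microglia lie at or under the T and B cells, and Clec5a lies above them.

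Cell by cell the order depended on the measure. Per 100 cells, 3 dpi microglia held more UMIs of Clec4d, Clec4e and Clec4n, 133, 68.9 and 49.1 against 21.3, 18.1 and 9.22 in T and B cells. The median depth was 19491.5 UMIs in microglia and 3282 in T and B cells. The subtraction in CPM took more UMIs per cell from the deeper microglia, and how free RNA spreads with depth was not tested. Clec4d was found in 51.2% of 3 dpi microglia, in 17.8% of T cells and in 20.8% of B cells, and after thinning to 1000 UMIs in 5.9% (4.46 to 7.63), 4.61% and 10.8%. The thinned share of microglia lay between those of T and B cells. At 14 dpi, where the background was lower, Clec4d (8.5 against 2.03 CPM) and Clec4n (3.38 against 0.313 CPM) lay above the T and B cells in microglia. There 4 of 8 members were called higher than in ActD sham (7.36% of all genes), of which 3 remained after the subtraction and its interval rule. Against 3 dpi, 0 members of the 14 dpi microglia were called higher (10.7%) and 4 lower (14.6%), Clec4e (-3.29), Clec4d (-2.82), Clec4n (-2.71) and Clec4a1 (-1.16). Among 16 microglia clusters at 14 dpi Clec4d ranged from 0 to 25.1 CPM, highest in a cluster of 512 cells led by Lpl, Ch25h and Spp1.

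In the standard sham, 3 members were called higher in microglia than in ActD sham (7.62% of all genes): Clec4e (log2 ratio 3.25), Clec4d (2.13) and Clec12a (1.34). After subtraction of the T and B cells, with the same interval rule, the count was 0. Clec4a3 was the 1 member called lower (-1.04, 21.2% of all genes), and that call was lost after TMM scaling. In neutrophils of the standard sham, 3 members were called higher than in ActD sham (15.3% of all genes), Clec4n (3.64), Clec4a3 (1.05, or 0.99 after TMM scaling) and Clec4e (1.01, or 0.94), and Clec12a was called lower (-1.11, 7.37%).

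In DCs, Clec4n and Clec4e stood above the T and B cells at 3 dpi, Clec4d did not, and all 3 were low at 14 dpi. Clec4n was at 153.9 and 5.98 CPM, Clec4e at 77.98 and 2.46 CPM and Clec4d at 58.2 and 2.46 CPM. Clec4n fell by 4.69, Clec4e by 4.98 and Clec4d by 4.56 on the log2 scale. With Clec5a (-2.79) and Clec4a2 (-1.21) these made 5 of 8 members called lower, against 6.68% of all genes, and 0 were called higher, against 7.68%. The background in T and B cells was lower at 14 dpi as well, going from 58.3 to 2.03 CPM for Clec4d, from 49.6 to 2.03 CPM for Clec4e and from 25.3 to 0.313 CPM for Clec4n. All 10 injury-like macrophage markers at 3 dpi, and 9 of 10 at 14 dpi, had UMIs in DCs, and they summed to 7063 and 1349 CPM. Their part in these ratios was not tested. In conventional DC-like clusters Clec4n was at 187.5 and 8.71 CPM, and in DC1-like clusters at 16.6 CPM and, at 14 dpi, 0 UMIs. Within the conventional DC-like clusters 4 members, Clec4e (-5.13), Clec4d (-4.58), Clec4n (-4.43) and Clec5a (-2.83), were called lower at 14 than at 3 dpi (6.98% of all genes), and Clec4a3 was called higher, at 72.2 against 34.5 CPM (8.77%), a log2 ratio of 1.07 that was 0.9 after TMM scaling.

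Clec5a, the DAP12-coupled receptor, differed from the other activating members in microglia. It was the activating receptor that stood above background in microglia of every library, at 80.0, 132.6, 64.8 and 82.7 CPM. Clec4a2 and Clec4a3 were above background in microglia of every library too. Of the 6 members with enough UMIs to compare, Clec5a was the 1 (14.4% of all genes) that microglia of the ActD sham held more of than macrophages (132.6 against 50.8 CPM, log2 ratio of macrophages to microglia -1.38). Over 35 sums of a class in a library, Clec5a was closest among the members to Clec4a2 (Pearson's r = 0.838). At 3 dpi its log2 ratio to ActD sham was -1.03 in microglia, which became -0.56 and was no longer called after TMM scaling, and the median of all genes there was -0.53. Thinned shares of microglia with a UMI were 8.23%, 11.2%, 7.21% and 7.95%, and 2.2% in T cells at 3 dpi. Before thinning the microglia shares were 42.1%, 65.1%, 61.8% and 54.4%.

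In neutrophils Clec5a was at 76.9, 118.5, 225.3 and 111 CPM, highest at 3 dpi with a log2 ratio to ActD sham of 0.93 that did not reach 2-fold. In monocytes it was at 38.7, 28.3, 75.6 and 41.3 CPM, in macrophages at 19.3, 50.8, 40.4 and 51.9 CPM, and in DCs at 70.7 and 10.2 CPM. Neutrophils exceeded the other classes at 3 dpi. Against monocytes their log2 ratio was 1.58 and against macrophages 2.48, and in both comparisons Clec5a and Clec4e were the 2 members called higher in neutrophils, with 19.6% and 22.3% of all genes. Clec4a1, Clec4a2 and Clec4a3 were called lower in neutrophils than in monocytes at 3 dpi (7.09% of all genes), and 0 members were called lower than in macrophages (10.4%). At 14 dpi, Clec4d (2.95), Clec4e (1.84) and Clec5a (1.43) were called higher in neutrophils than in monocytes (8.33% of all genes), and Clec4a1 (-4.44) and Clec4a3 (-4.34) were called lower (51.3%).

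The inhibitory receptors ran the other way in neutrophils. Clec4a2 was at 242.3, 269.2, 75.7 and 312 CPM, and Clec12a at 105.5, 227, 38.8 and 215 CPM. Both were lowest at 3 dpi, and no interval of another library overlapped that of 3 dpi. They were the 2 members called lower than in ActD sham, with log2 ratios of -1.83 and -2.55, where 6.91% of all genes were called lower. From 3 to 14 dpi the same 2 were called higher (2.04 and 2.47, 7.73% of all genes), and 4 members were called lower (46.8% of all genes): Clec4n (-2.57), Clec4e (-2.45), Clec4a1 (-1.13) and Clec5a (-1.02), the last 2 of which were lost after TMM scaling.

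Among Ltf-poor neutrophils, which were not matched among libraries in other neutrophil genes, the difference was smaller. Clec12a went from 77.7 CPM in ActD sham to 33.6 CPM at 3 dpi and 109.9 CPM at 14 dpi, and Clec4a2 from 166 to 73.2 and 203.5 CPM. Both were still called lower than in ActD sham at 3 dpi, with log2 ratios of -1.21 and -1.18 and 6.14% of all genes. Thinned shares of neutrophils with Clec12a were 7.0%, 24.3%, 2.72% and 14.7%, after 45.2%, 68.9%, 6.55% and 54.0% unthinned.

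Macrophages showed the same direction. Clec12a was at 233.1, 241.4, 23.4 and 92.0 CPM, and Clec4a2 at 270, 300.4, 61.8 and 85.6 CPM. The sham libraries were high and 3 dpi was lowest. By 14 dpi, against 3 dpi, Clec12a (1.98) and Clec4a3 (1.37) were called higher in macrophages (16.2% of all genes), and Clec4d (-1.78) and Clec4n (-1.02) were called lower (7.23%). Microglia markers summed to 963.9 CPM in macrophages at 3 dpi and to 5634 CPM at 14 dpi. The part of this difference in the ratios was not tested. The 14 dpi class held 316 cells, but 204 with libraries merged and 1301 with classes taken per cell. At 3 dpi, 4 members were called lower than in ActD sham (24.8% of all genes): Clec12a (log2 ratio -3.37), Clec4a3 (-2.9), Clec4a1 (-2.65) and Clec4a2 (-2.28). Within border-like macrophages Clec12a (-1.99), Clec4a3 (-1.73) and Clec4a2 (-1.01, or -0.73 after TMM scaling) were called lower, with 16.3% of all genes. Injury-like macrophages at 3 dpi held less than border-like ones of Clec4a1 (19.9 against 94.05 CPM), Clec12a (19.6 against 60.8 CPM), Clec4a2 (53.0 against 149 CPM) and Clec4a3 (31.3 against 80.4 CPM), the 4 members called lower, with 9.65% of all genes. At 14 dpi the same 4 were called lower (11.0%), at 17.2 against 114.3 CPM for Clec4a1, 70.7 against 150 CPM for Clec12a (-1.09, or -0.78 after TMM scaling), 36.7 against 218.6 CPM for Clec4a2 and 61.95 against 175.6 CPM for Clec4a3.

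In microglia Clec4a2 was at 76.7, 103.2, 28.7 and 30.2 CPM. It was lower in both injured libraries than in both sham libraries, with log2 ratios to ActD sham of -1.85 (-1.99 to -1.71) at 3 dpi and -1.77 at 14 dpi. At 14 dpi it was the 1 member called lower (19% of all genes), and at 3 dpi it was 1 of 3 (33.0%) and the only 1 of them still called after TMM scaling, at -1.37, where Clec4a3 (-1.46) became -0.98. Among the 14 dpi microglia clusters Clec4a2 ranged from 9.49 CPM, in the Lpl-led cluster of 512 cells, to 88.1 CPM in a cluster of 366 cells led by P2ry12, a gene of homeostatic microglia. Clec12a was at 4.27, 1.69, 9.48 and 12.2 CPM in microglia, and from 0 to 78.5 CPM among the 14 dpi clusters.

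Clec12a in DCs, at 56.6 and 86.2 CPM, had its highest level in DC1-like clusters, which held 167.8 and 186.3 CPM against 46.8 and 68.1 CPM in conventional and 11.6 and 12.9 CPM in migratory DC-like clusters. The more numerous conventional clusters held most of its UMIs, 163 at 3 dpi and 133 at 14 dpi, against 81 and 108 in DC1-like clusters. At 14 dpi it was the 1 member called higher in DC1-like than in conventional clusters (log2 ratio 1.45, 3.69% of all genes), and Clec4a3 (-4.39), Clec4a1 (-4.03) and Clec4a2 (-3.27) were called lower (9.82%). Monocytes held 160.6, 147.7, 58.4 and 167.9 CPM of Clec12a and 199.3, 101.2, 184.7 and 156.3 CPM of Clec4a2. Clec12a was thus lowest at 3 dpi in monocytes too, and it was called higher at 14 than at 3 dpi (1.52), together with Clec4a3 (1.08, or 0.73 after TMM scaling and 23.3% of all genes). In classical-like monocytes alone, Clec12a was the 1 member called higher (23.0%), and Clec4a3 had a log2 ratio of 0.95.

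**Figure D5:**
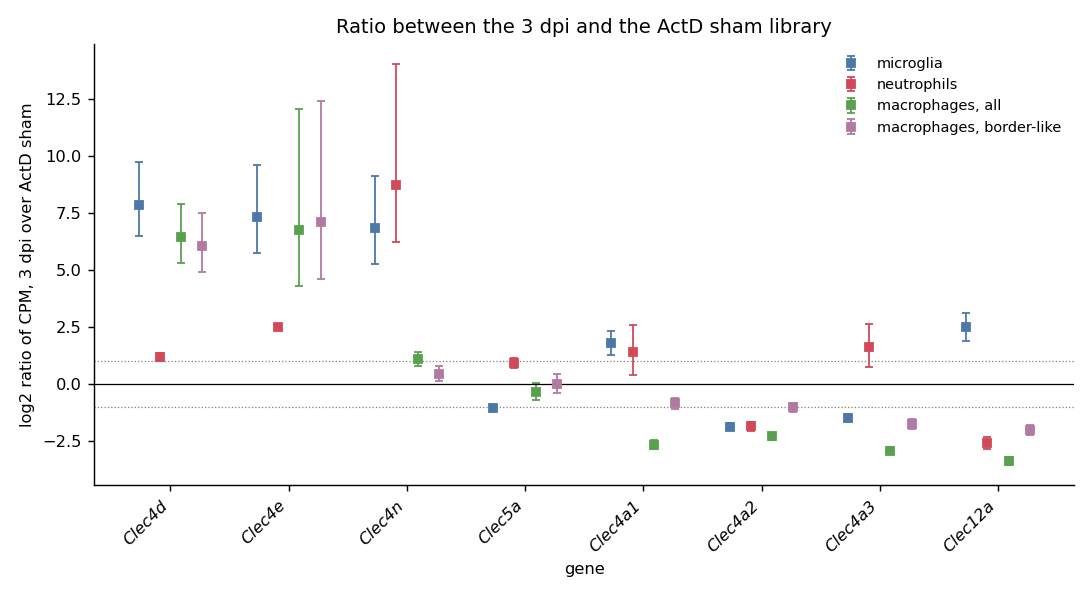
log2 ratio of each receptor gene at 3 dpi over ActD sham in microglia, neutrophils, all macrophages and border-like macrophages. Points are ratios of CPM, bars are exact 95% intervals for counting error, and dotted lines mark 2-fold. Clec4a2 lies under equal levels in all 4, and Clec12a lies above in microglia only.

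Clec4a1 and Clec4a3 marked monocytes and border-like macrophages. Clec4a1 was at 85.1, 255, 106.7 and 140.3 CPM and Clec4a3 at 109.8, 574.8, 157.4 and 331.7 CPM in monocytes. Non-classical-like monocytes, which patrol vessels, held 350.2 CPM of Clec4a1 in the standard sham (36 cells) and 368.4 CPM at 14 dpi (96 cells), and 443.5 and 849.7 CPM of Clec4a3. At 14 dpi these 2 were the members called higher in non-classical-like than in classical-like monocytes (log2 ratios 1.52 and 1.48, 7.2% of all genes), and Clec4a2 (-2.66) and Clec5a (1 UMI) were called lower (9.28%).

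In macrophages Clec4a1 was at 130.2, 167.4, 26.7 and 43.3 CPM and Clec4a3 at 135, 267.5, 35.8 and 92.5 CPM, both lowest at 3 dpi. Neutrophils held 14.6, 7.04, 21.6 and 16.4 CPM of Clec4a3. In microglia Clec4a3 was at 32.2, 66.1, 24.1 and 44.6 CPM, above the T and B cells in every library, and Clec4a1 did not exceed 8.3 CPM. Border macrophages of the ActD sham exceeded microglia of the same library in 5 members (7.59% of all genes), Clec4n (log2 ratio 8.5), Clec12a (7.16), Clec4a1 (6.12), Clec4a3 (2.02) and Clec4a2 (1.54).

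The order of the classes at 3 dpi differed by gene. Clec4d ran from monocytes through neutrophils and macrophages to microglia and DCs, whose intervals overlapped. Clec4e was highest in neutrophils, then monocytes, with macrophages and DCs not separated and microglia lowest. For Clec4n, monocytes, DCs and macrophages overlapped below neutrophils. Clec12a was highest in monocytes and DCs, which overlapped, and lowest in microglia. In a whole class, fewer cells of a kind and less RNA of a gene per cell cannot be told apart.

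Of the signalling partners, the adaptor Fcer1g was at 2150, 2335, 2835 and 3129 CPM in microglia, 2108, 1827, 2383 and 1814 CPM in neutrophils and 2424, 2917, 2792 and 2844 CPM in macrophages, with no difference of 2-fold at 3 dpi. Tyrobp rose in neutrophils at 3 dpi, at 5158 against 2457 CPM (log2 ratio 1.07), where the median of all genes was 1.09. Syk was at 106.3, 113.4, 55.5 and 58.7 CPM in microglia (called lower at 3 dpi, log2 ratio -1.03) and 179.4, 161.9, 281.4 and 145.3 CPM in neutrophils (0.8). Card9 fell in all 3 classes, from 49.7 to 12.03 CPM in microglia (log2 ratio -2.05), from 23.5 to 9.05 CPM in neutrophils (-1.37) and from 22.4 to 8.26 CPM in macrophages (-1.44). The list of adaptors and the activating signal chain held 16 genes. Of these, 1 was called higher and 9 lower in microglia at 3 dpi, with a median log2 ratio of -1.08 against -0.53 for all genes. In neutrophils 6 were called higher and 2 lower, and in macrophages 0 higher and 8 lower. The counts of this and the following lists stand beside 15.4% of all genes called higher and 33.0% lower in microglia, 49.9% and 6.91% in neutrophils, and 8.32% and 24.8% in macrophages, so that 6 of 16 higher in neutrophils was under the share of all genes. A list for inhibitory signalling held Ptpn6, Ptpn11, Inpp5d, Inppl1, Cblb, Dok1 and Dok3. Of these 7 genes, 0 were called higher and 1 lower in microglia and in macrophages. In neutrophils 4 were called higher and 0 lower, near the 49.9% of all genes. With the TMM shifts given above, Syk and Inpp5d in microglia, Card9 in macrophages and Tyrobp in neutrophils no longer reached 2-fold. Inpp5d was the 1 called lower in microglia (-1.28), and it was called higher in neutrophils (2.07), while Ptpn6 had log2 ratios of -0.44 and 0.82. Of other C-type lectin genes, 6 of 16 were called higher and 4 lower in microglia, 9 of 12 higher and 1 lower in neutrophils (49.9% and 6.91% of all genes), and 2 of 22 higher and 14 lower in macrophages.

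Genes of the cytokine response to Syk and Card9 were mostly higher at 3 dpi. In neutrophils 12 of 12 tested were called higher than in ActD sham (median 6.82 against 1.09 for all genes, of which 49.9% were called higher), and Ccl3 went from 4.11 to 1536 CPM. In microglia 11 of 14 were higher and 2 lower (median 4.53, with 15.4% and 33.0% of all genes), and in macrophages 8 of 14 were higher and 0 lower (8.32% and 24.8%). The same list was higher in 13 of 14 genes in the standard sham over the ActD sham microglia (median 6.27, with 7.62% of all genes called higher), and Cxcl2 in microglia was at 398.5, 0.259 and 414.9 CPM in standard sham, ActD sham and 3 dpi. In neutrophils of the standard sham over ActD sham, 10 of 10 tested were called higher as well (median 3.68, with 15.3% of all genes). From 3 to 14 dpi, 12 of 12 were called lower in neutrophils, where 46.8% of all genes were, and 12 of 12 in monocytes, where 7.45% were. A further list held 7 genes reported as self ligands of C-type lectin receptors, which need not be ligands of the 8 genes described here. Of these 7, 4 were higher in microglia at 3 dpi (15.4% of all genes), where Vim went from 11.9 to 898 CPM. In neutrophils 3 were higher and 2 lower (49.9% and 6.91% of all genes), with Anxa1 at 3753 and 173.9 CPM.

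Genes whose log2 CPM followed each receptor most closely were ranked by Pearson's r over 35 sums of a cell class in a library, among 9833 genes. Clec4d and Clec4e were nearest to each other, with r = 0.922, followed by Slc7a11 for Clec4d (0.894) and Tarm1 for Clec4e (0.872). Clec4n was nearest to Tgfbi (0.905), Clec5a to Pilra (0.88), Clec4a2 to Lst1 (0.883), Clec4a3 to Lrrc25 (0.867), Clec4a1 to Serpinb8 (0.861) and Clec12a to Lmo1 (0.817). The sums share libraries and background, so r is a description.

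Clec4d and Clec4e were also read in the same cells. After thinning to 1000 UMIs, 15.5%, 8.74%, 22.5% and 17.0% of neutrophils held both, against 15.6%, 5.43%, 20.8% and 11.5% if each were drawn independently. The difference in percentage points was largest at 14 dpi, and the ratio of the shares was larger in the ActD sham, which held 103 neutrophils. At 14 dpi 45.7% of neutrophils with Clec4d and 22.2% of those without it held Clec4e. These neutrophils pooled Ltf-poor cells, with 1050 CPM of Clec4d and 703.6 CPM of Clec4e, and Ltf-rich cells, with 37.3 and 113.3 CPM. The part of this pooling in the excess was not tested. In the standard sham there was no excess.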

How the data were processed

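Single-cell RNA-seq had been made from CD45+ spinal cord cells, with 1 library per condition. The authors deposited gene by barcode matrices of UMI counts, not normalized. The submitters' processing notes name Cell Ranger and mm10, and the matrix headers give Cell Ranger 3.0.1 (standard sham, 3 dpi) and 3.1.0 (ActD sham, 14 dpi). The series' design text speaks of Drop-Seq and the study's methods of the 10x platform, and the matrix headers are those of the latter.

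Cells needed 600 or more detected genes and no more than 10% of UMIs from mitochondrial genes. Doublet scores (Scrublet's method in scanpy 1.11.5) removed 263, 39, 726 and 947 cells in the order standard sham, ActD sham, 3 dpi and 14 dpi, at a rate of 0.8% per 1000 cells, and 410, 26, 540 and 870 cells with UMIs of both Itgam and a lymphoid marker were removed. Libraries shared 3 to 36 barcodes per pair. Cells were integrated by anchors and clustered in Seurat 5.3.0 under R 4.3.3 (2000 features, 50 dimensions, resolution 0.6) with the lectin genes left out, then subclustered within each library. Clusters were named from a fixed marker list, but how many markers a name required was decided with the clusters in view, and 735, 279, 370 and 358 cells stayed unnamed. Differences from the study's own cell types may come from these rebuilt names.

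Counts were summed per class and library and divided by the UMIs of those cells. Intervals are exact (Poisson, conditional binomial for ratios, Clopper-Pearson for shares, scipy 1.17.1) and cover counting error only. Ratios were taken for chosen comparisons, in which each side had at least 20 cells. A gene was called at 2-fold with an interval excluding equal levels and at least 20 UMIs in the pair. Intervals and calls were tested on simulated data, but the outcome is not given here and nothing above rests on it. With 1 library per condition no test was run.

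The 9 members, the gene lists and the rules were chosen with earlier results of these data known. Every member was named. Of each list, Fcer1g, Tyrobp, Syk, Card9, Ptpn6 and Inpp5d and up to 3 genes with the largest ratio were named, and per member the genes with the highest r. Alternatives were TMM scaling (edgeR 4.0.16), no UMI minimum, libraries clustered alone or merged, resolution 1.2, classes called per cell, stricter cell filters, doublets kept and cells with both marker kinds kept. Gene positions are from GENCODE M21.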

Additional observations from a re-analysis of the deposited data

Results flagged for a closer look

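Some members moved in opposite directions in 2 classes of the same pair of libraries, and with 1 library per condition each such difference was not tested. At 3 dpi over ActD sham, the log2 ratio of Clec12a was 2.49 in microglia, -2.55 in neutrophils and -3.37 in macrophages. The microglia level behind it was 9.48 CPM, with 6.1 CPM in the T and B cells of that library. The log2 ratio of Clec4a1 was 1.79 in microglia and 1.42 in neutrophils but -2.65 in macrophages, and the levels it rests on at 3 dpi were 8.3, 14.1 and 26.7 CPM, with 8.27 CPM in T and B cells. Clec4a3 had a log2 ratio of 1.62 in neutrophils, against -1.46 in microglia and -2.9 in macrophages. The neutrophil ratios of Clec4a1 and Clec4a3 rest on 9 and 12 UMIs in ActD sham, beside a median of 1.09 over all genes. After TMM scaling they were 0.56 and 0.76 and no longer called. Among Ltf-poor neutrophils the intervals of both included equal levels (-0.89 to 4.1 and -0.79 to 2.52). From 3 to 14 dpi, Clec4a2 had a log2 ratio of 2.04 in neutrophils and -1.21 in DCs.

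Receptors also appeared above the T and B cells in cells outside the 5 classes. In 52 myeloid progenitor-like cells at 3 dpi, Clec4d was at 178.7 CPM, Clec4e at 139.4 CPM, Clec4n at 146.9 CPM and Clec5a at 124.2 CPM. The T and B cells held 58.3, 49.6, 25.3 and 14.8 CPM. At 3 dpi no cells took this name with libraries clustered alone or merged, or under stricter cell filters. In progenitor-like cells of the standard sham (97 cells) and 14 dpi (120 cells), Clec12a was at 500.7 and 451.1 CPM, against 6.55 and 6.88 CPM. Clec4a2 was at 139.1 CPM in those of 14 dpi, against 5.16 CPM. Mast cell- or basophil-like cells of the standard sham (31 cells) held 153.4 CPM of Clec4e, against 4.8 CPM. Plasmacytoid DC-like cells held 243.4, 152.1 and 207.6 CPM of Clec12a in the standard sham, at 3 dpi and at 14 dpi, against 6.55, 6.1 and 6.88 CPM. They numbered 62, 24 and 62, and at 3 dpi no cells took this name under stricter filters. None of these was replicated.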

How the results depend on the processing

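Of 57 calls on single members, 48 were kept under TMM scaling, 57 with no minimum of UMIs, 55 with each library clustered alone, 53 with libraries merged without integration, 56 at resolution 1.2, 52 with classes taken per cell, 54 with stricter cell filters, 55 without doublet removal and 56 with mixed-marker cells kept. The values behind the calls moved more often. Over these alternatives, 219 log2 ratios of members were counted as moved from the main value and 573 as the same. For shares of cells with a UMI, 104 were counted as moved and 40 as the same. The larger relative changes in the number of members called higher, those counted as moved, were as follows. In neutrophils at 3 dpi over ActD sham it was 2 under TMM in place of 5. In macrophages at 14 over 3 dpi it was 4 with merged libraries and 1 with classes per cell in place of 2. In monocytes at 14 over 3 dpi it was 1 under TMM, with merged libraries and without doublet removal in place of 2. In DCs at 14 over 3 dpi it was 1 with libraries alone, merged or classes per cell and 2 under stricter filters in place of 0. Smaller changes were counted as the same. In macrophages at 3 dpi over ActD sham it was 2 with libraries alone or merged, at resolution 1.2 and under stricter filters in place of 3. In macrophages at 14 over 3 dpi it was 3 under stricter filters in place of 2. At 14 dpi over ActD sham it was 5 in microglia under TMM and without doublet removal in place of 4. In neutrophils of that pair it was 3 with libraries alone and without doublet removal in place of 2. Other alternatives were chosen after seeing the data. In Ltf-poor neutrophils the count was 3 in place of 5 at 3 dpi and 1 in place of 2 at 14 dpi over ActD sham, and Clec4d reversed at 3 dpi, with a log2 ratio of -0.58. With T and B cells subtracted, and a class interval above theirs also required, it was 3 and 1 in the same comparisons of neutrophils. It was 0 in microglia at 3 dpi (5) and in the standard sham (3) over ActD sham. It was 3 in microglia at 14 dpi (4) and 2 in macrophages at 3 dpi (3) over ActD sham. No paired analysis was possible because each condition had 1 library. The ActD sham holds 103 neutrophils and 124 macrophages, so counting limits its low genes most. The causes were not tested.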
